A study of Mus musculus with 16 samples.

Results

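The comparison described here set liver RNA from the second week of recovery after thioacetamide against liver RNA from the first week. It took 4 libraries of week 2 and 4 libraries of week 1, chosen by the recovery time in their labels, out of 16 libraries in the series, and every gene that passed a filter on low counts. Each week held 2 libraries without choline and 2 with choline, and choline entered the fit as a block, so that the week difference was taken within each drink and averaged.

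All 8 libraries came from whole liver of mice labelled WT that had drunk thioacetamide (TAA), a liver toxin used to produce fibrosis, at 300 mg/L for 8 weeks. The week-2 groups then recovered for 2 weeks and the week-1 groups for 1 week, either on water alone or on water with choline chloride at 3.5 g/L. The other 8 libraries were 4 from week 4 of recovery, 2 from the end of TAA and 2 untreated controls, and they were used only to show levels. The labels used here give no strain, sex, age, hour of collection or feeding state, and they do not say that the 2 replicates of a group came from separate animals. The p-values therefore measure the spread between these libraries, which may be technical.

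Library totals were 23.1 to 25.9 Mcounts in week 2 and 25.7 to 30.6 Mcounts in week 1, counted in megacounts, and 21263 to 21568 genes in week 2 and 21689 to 22443 genes in week 1 had at least 1 count. On the first principal component, which held 29.3% of the variance, the week-2 libraries lay at 2.7 to 32.7 and the week-1 libraries at -36.9 to -11.8. The week-2 library nearest to week 1 was replicate 2 with choline, at 2.7. Levels are given as CPM, counts per megacount of the scaled library size, and the 4 values of a week are listed as replicates 1 and 2 without choline, then replicates 1 and 2 with choline. Markers of periportal hepatocytes summed to 64300 to 69000 CPM in week 2 and 58700 to 67600 CPM in week 1. Most of that sum was albumin RNA, with Alb at a mean of 52300 CPM in week 2 and 49600 CPM in week 1. Because these are pieces of whole liver, fewer cells of a type and less RNA per cell cannot be told apart.

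The liver lobule is divided into zones: hepatocytes around the central vein make glutamine and carry much of the cytochrome P450 that converts toxins such as TAA into reactive products, while hepatocytes near the portal vein make glucose and urea. Cholesterol synthesis is switched on as a block by the transcription factor SREBP2, and export of sterols into bile is switched on by the oxysterol receptors LXR. Liver RNA also follows a daily clock, in which CLOCK and BMAL1 drive their own repressors, the Per, Cry and Rev-erb genes.

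Between week 2 and week 1, 645 of 16544 genes tested (3.9%) were called, meaning that the adjusted p was under 0.05 in edgeR's quasi-likelihood test with Benjamini-Hochberg adjustment over all genes. Of these, 379 (2.29% of genes tested) were higher in week 2 and 266 (1.61%) were lower. Most differences were small: the median absolute log2 fold change of the called genes was 0.47, with 29 genes more than 2-fold higher and 52 more than 2-fold lower. The 4 week-2 libraries lay wholly above or wholly below the 4 week-1 libraries for 598 of the 645, whereas 13.5% of all genes tested were separated in this way, 6.96% with week 2 above and 6.5% with week 2 below. The calls were made on these same 8 libraries, so separation of the called genes was largely built in and is not separate support. No overlap was also a condition for the genes named by size. Leaving out 1 library at a time left between 154 called genes (without week 2 choline replicate 1) and 489 (without week 2 choline replicate 2), with 158 without week 2 water replicate 1, 199 without week 2 water replicate 2, 290 without week 1 choline replicate 2, 376 without week 1 water replicate 1 and 404 without week 1 water replicate 2. None of the 645 changed sign in those fits, and 112 were called in all 8 of them.

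The called genes were also placed by libraries that had no part in the comparison. Among the 379 genes called higher in week 2, 181 (47.8%) stood higher in both untreated control livers than in both livers from the end of TAA, and 32 (8.44%) stood lower. Over all 16544 genes the shares were 20.5% and 25.4%. Among the 266 genes called lower in week 2, 27 (10.2%) stood higher in both controls than in both TAA livers and 138 (51.9%) stood lower. Among the 29 called genes over 2-fold higher the shares were closer, with 11 (37.9%) higher in both controls and 8 (27.6%) lower, and among the 52 over 2-fold lower 3 (5.77%) were higher and 27 (51.9%) lower. These control and TAA libraries are uneven, with 18872 and 21367 genes detected in the controls, so the placement is a description without a test.

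**Figure D1:**
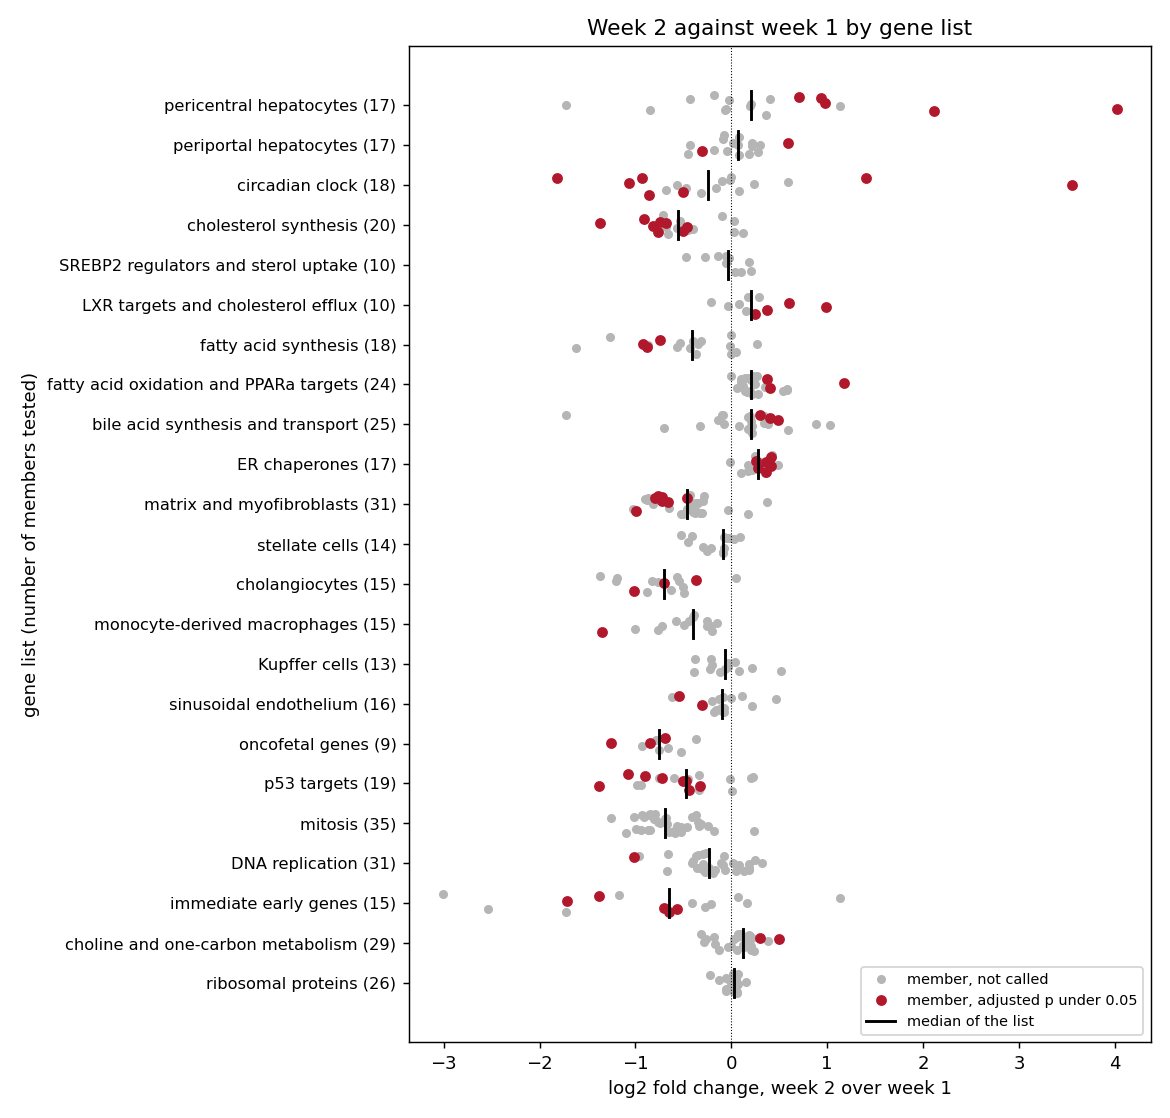
Log2 fold change, week 2 over week 1 (x axis), of each tested member (points) of 23 gene lists (rows, with the number of members tested), red where the gene was called and grey where it was not; black bars are list medians. Cholesterol synthesis (median -0.56), p53 targets (-0.47), matrix (-0.46) and oncofetal genes (-0.75) lie to the left of 0, ER chaperones (0.28) lie to the right, and the clock list is split, with Nr1d1 at 3.55 and Per2 at -1.82.

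Genes of pericentral hepatocytes held the largest rise among the genes named by size. Of 17 members tested, 5 were called higher and 0 lower, against 2.29% and 1.61% of all genes tested. The median log2 change was 0.21, against -0.01 over all genes. Slc1a2, a glutamate transporter confined to the hepatocytes next to the central vein (GRCm38, chromosome 2, 102658659 to 102790784, plus strand), stood at 36.7, 37.7, 23.4 and 16.6 CPM in week 2, against 2.81, 0.808, 1.04 and 2.26 CPM in week 1. Every week-2 library exceeded every week-1 library by several fold, and the difference was 16.2-fold (log2 4.02 ± 0.4 SE, edgeR adjusted p = 0.00929). Glul, glutamine synthetase, which marks the same narrow zone (chromosome 1, 153899944 to 153909723, plus strand), stood at 219, 227, 231 and 193 CPM in week 2 and at 103, 110, 117 and 111 CPM in week 1. Here the libraries of each week lay close together, and week 2 was 1.97-fold higher (log2 0.98 ± 0.07, edgeR adjusted p = 0.000149).

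The rest of the pericentral call came from enzymes. Oat, ornithine aminotransferase, which feeds glutamate to glutamine synthesis (chromosome 7, 132557478 to 132576398, minus strand), stood at 282, 209, 184 and 126 CPM in week 2 and at 60.8, 46, 19.5 and 57.4 CPM in week 1 (log2 2.11 ± 0.38, edgeR adjusted p = 0.0485). Its neighbour Lhpp, a phosphatase acting on phosphohistidine (chromosome 7, 132610639 to 132706420, plus strand), rose beside it, with 14.2, 11.1, 12 and 7.07 CPM in week 2 and 4.65, 4.37, 2.04 and 4.77 CPM in week 1 (log2 1.48 ± 0.26, edgeR adjusted p = 0.028). For both neighbours the lowest week-2 library was replicate 2 with choline and the lowest week-1 library was replicate 1 with choline, and the weeks did not overlap. The P450 genes Cyp2c29 (log2 0.93 ± 0.1, edgeR adjusted p = 0.00312) and Cyp2e1, the enzyme that activates TAA and many solvents (log2 0.71 ± 0.13, edgeR adjusted p = 0.023), rose less. Cyp2e1 stood at 3170, 2580, 2480 and 2490 CPM in week 2 and at 2140, 1620, 1170 and 1660 CPM in week 1.

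In a fit of all 12 recovery libraries 4 of the list were called higher, with Oat at an adjusted p of 0.0694. Slc1a2, Glul and Cyp2c29 were called with any 1 library left out, while Oat and Lhpp lost the call in 6 and 5 of the 8 omissions (adjusted p up to 0.138 and 0.0885) and Cyp2e1 in 4 (up to 0.0844). The list was not uniform: 10 of its 17 members had a positive log2 change and 7 a negative one, so the calls do not describe the whole list. The most negative was Cyp7a1, the rate-limiting enzyme of bile acid synthesis and also pericentral. Cyp7a1 stood at 24.8, 34, 35.4 and 25.1 CPM in week 2, against 102, 125, 43.8 and 127 CPM in week 1. All week-2 libraries were below all week-1 libraries, but the adjusted p was 0.0761 (log2 -1.72 ± 0.38, edgeR). Periportal hepatocytes had 1 of 17 members called higher and 1 lower, with a median of 0.07, against 2.29% and 1.61% of all genes tested. The member that rose was Pck1, phosphoenolpyruvate carboxykinase of glucose synthesis, at 1960, 1690, 1570 and 1510 CPM in week 2 and 1060, 931, 1250 and 1250 CPM in week 1 (log2 0.59 ± 0.12, edgeR adjusted p = 0.0279).

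**Figure D2:**
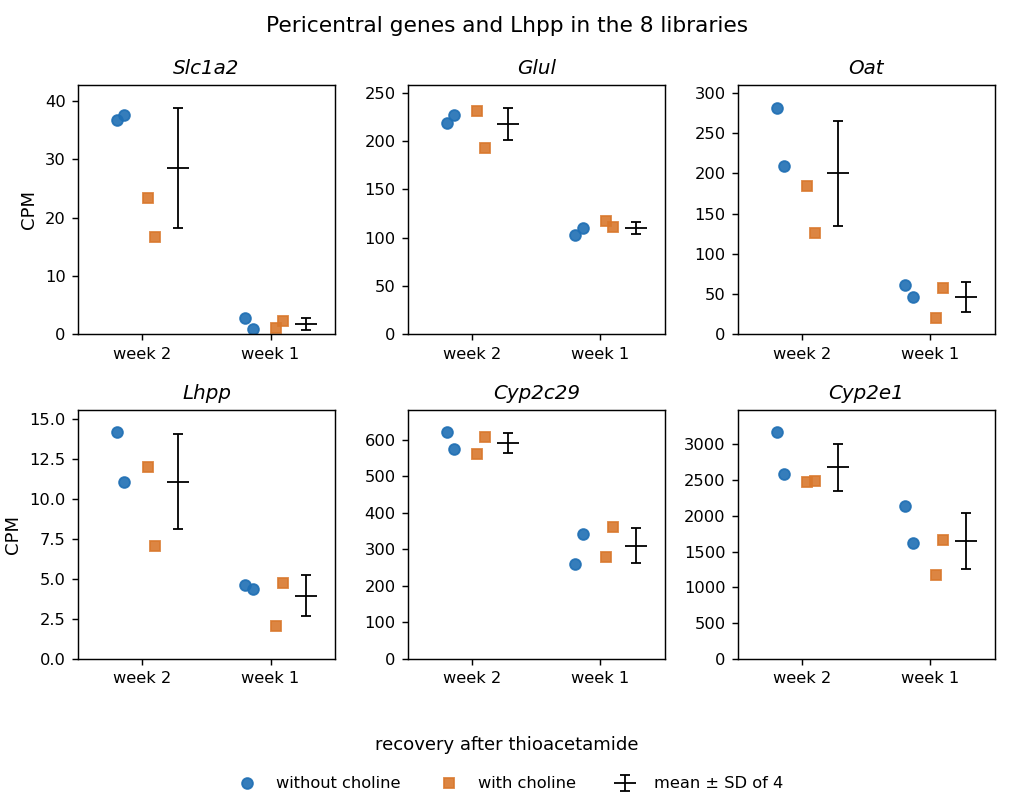
CPM (y axis, from 0) of 6 genes in each library of week 2 (left) and week 1 (right), circles without and squares with choline; black marks are the mean ± SD of the 4 libraries. The weeks are separated for all 6 genes, and Slc1a2 stands at 16.6 to 37.7 CPM in week 2 against 0.808 to 2.81 CPM in week 1.

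Levels of 2 pericentral markers in the remaining libraries are given without a test. Slc1a2 was at 149 and 177 CPM in untreated controls, at 0.342 and 0.291 CPM at the end of TAA, at 0.808 to 2.81 CPM in week 1, at 16.6 to 37.7 CPM in week 2 and at 57.8 to 125 CPM in week 4. Glul was at 1020 and 915 CPM in controls, at 73.8 and 73.7 CPM at the end of TAA, at 103 to 117 CPM in week 1, at 193 to 231 CPM in week 2 and at 234 to 367 CPM in week 4. At week 4 all 4 libraries were still below both controls for both genes. The summed level of the pericentral list did not keep this order, at 9230 to 13500 CPM in controls, 5280 to 6450 CPM at the end of TAA, 4720 to 5990 CPM in week 1, 6170 to 7230 CPM in week 2 and 6680 to 7490 CPM in week 4. Oat overlapped between the end of TAA and week 1 and between week 2 and week 4.

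Genes of the circadian clock made up much of the remaining top of the list, and they moved in opposite directions. Of 18 members tested, 2 were called higher and 5 lower, against 2.29% and 1.61% of all genes tested, with a median of -0.24. The 2 that rose are the Rev-erb repressors. Nr1d1 (chromosome 11, 98767932 to 98775333, minus strand) stood at 96.6, 28.8, 38.6 and 52.6 CPM in week 2, against 3.57, 3.98, 5.11 and 5.72 CPM in week 1. Week 2 was 11.7-fold higher without overlap (log2 3.55 ± 0.5, edgeR adjusted p = 0.031), with a wide spread within week 2 and a narrow spread within week 1. Nr1d2 stood at 69.2, 43.7, 49 and 53.1 CPM in week 2 and at 20, 21.6, 21.9 and 17.9 CPM in week 1 (log2 1.4 ± 0.14, edgeR adjusted p = 0.00374).

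Those that fell included Per1, Per2, Per3 and Usp2. Per2, a repressor of CLOCK and BMAL1 (chromosome 1, 91415982 to 91459324, minus strand), stood at 6.24, 7.21, 5.38 and 4.55 CPM in week 2 and at 21.8, 21.7, 16.4 and 22.2 CPM in week 1. It shared the smallest adjusted p of the comparison (log2 -1.82 ± 0.12, edgeR adjusted p = 6.26e-05). Its paralogue Per1 stood at 8.02, 6.16, 7.05 and 11.4 CPM in week 2 and at 13.6, 14.8, 15.4 and 14.9 CPM in week 1 (log2 -0.86 ± 0.15, edgeR adjusted p = 0.0172). Usp2, a clock-controlled deubiquitinase (log2 -1.07 ± 0.15, edgeR adjusted p = 0.00702), was also lower in every week-2 library than in any of week 1. Per3, named after its values were seen, fell less (log2 -0.5 ± 0.12, edgeR adjusted p = 0.0494).

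Outside the list, Bhlhe40, another repressor of the clock, stood at 56.5, 56.1, 62.4 and 60.5 CPM in week 2 and at 122, 126, 225 and 130 CPM in week 1 (log2 -1.34 ± 0.17, edgeR adjusted p = 0.0141). Wee1, a cell cycle kinase known as a clock output in liver, was at 2.51 to 3.85 CPM in week 2 and at 5.41 to 7.13 CPM in week 1 (log2 -0.94 ± 0.16, edgeR adjusted p = 0.0119). Arntl, which encodes BMAL1, stood at 29.8 to 35.6 CPM in week 2 and 28.9 to 37.4 CPM in week 1 and was not called (log2 -0.1 ± 0.09, edgeR adjusted p = 0.56). Dbp, a direct output, was also not called (log2 0.59 ± 0.43, edgeR adjusted p = 0.466), with 6.33 CPM in week 2 water replicate 1 and 1.5 to 2.17 CPM in the other 7 libraries.

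**Figure D3:**
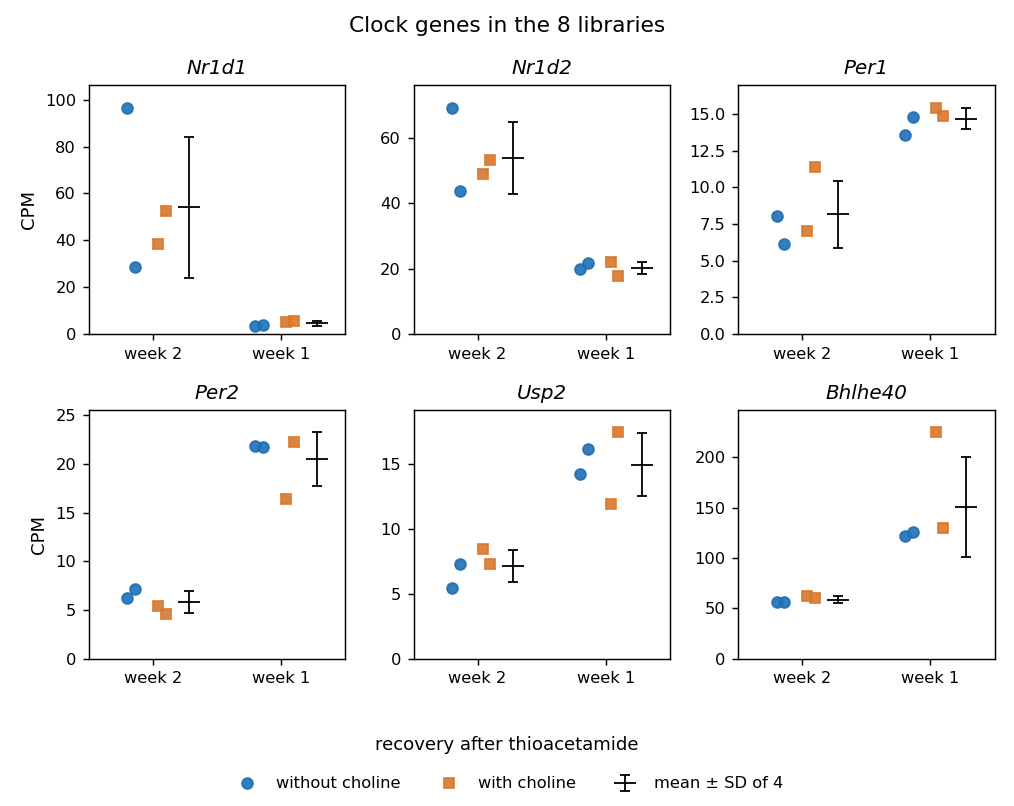
CPM (y axis, from 0) of 6 clock genes in each library of week 2 (left) and week 1 (right), circles without and squares with choline; black marks are the mean ± SD of the 4 libraries. Nr1d1 and Nr1d2 are higher in all week-2 libraries, and Per1, Per2, Usp2 and Bhlhe40 are lower in all of them.

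Nr1d2, Per2, Usp2 and Wee1 were called with any 1 library left out. Nr1d1 lost the call in 6 of 8 omissions (adjusted p up to 0.0956), Bhlhe40 in 3 (up to 0.0612) and Per1 in 1, without week 2 water replicate 1 (adjusted p = 0.0535). The 3′ end of Nr1d1 overlaps that of Thra on the other strand, and the labels used here do not say how the counting treated strand. Thra, chosen for this reason after its values were seen, stood at 16.5 to 18.3 CPM in week 2 and 16 to 19 CPM in week 1 (log2 -0.03 ± 0.08, edgeR adjusted p = 0.883). Between 1 and 2 clock genes were called higher and 3 to 5 lower in those fits. The clock genes moved with the week beside every gene group below, and their part in those results was not tested.

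E-boxes, CACGTG, are the sites that CLOCK and BMAL1 bind, and the letters read the same on both strands. In the 250 bases before the RefSeq start (build GRCm38.p6), 5 of 16 clock genes with a listed window held CACGTG, a share of 31.2%, against 6.05% of 27025 genes. CACGTG was also in 2 of the 15 windows listed for cholesterol synthesis genes, a share of 13.3%. Of the 5 called clock genes with a window, 1 held it, Per1, whose window lies at chr11:69098699-69098948 on the plus strand and is shown because its RNA fell. Capitals mark the E-box, which begins 166 bases before the start.
Per1: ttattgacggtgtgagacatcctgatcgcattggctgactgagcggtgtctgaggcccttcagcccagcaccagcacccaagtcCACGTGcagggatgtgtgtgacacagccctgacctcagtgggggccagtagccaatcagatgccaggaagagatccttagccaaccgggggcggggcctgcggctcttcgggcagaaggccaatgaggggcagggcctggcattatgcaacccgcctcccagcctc
The windows of Nr1d1 and Nr1d2 held no CACGTG, which says only that these letters are not in those 250 bases.

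Genes of cholesterol synthesis fell. Of the 20 enzymes tested, 0 were called higher and 8 lower, against 2.29% and 1.61% of all genes tested. The median log2 change was -0.56. The 8 run along the pathway: Pmvk and Mvd of the mevalonate steps, Fdft1 and Sqle of the squalene steps, Lss, which closes the sterol ring, and Msmo1, Hsd17b7 and Dhcr7 of the later sterol steps. Windows were listed for 6 of the 8, and 4 are shown because their RNAs fell and they held the box described next. Not shown are Pmvk, with 1 match, and Dhcr7, with 0. Capitals mark CCAAT or its reverse complement ATTGG, the box bound by the factor NF-Y, a partner of SREBP2.
Mvd: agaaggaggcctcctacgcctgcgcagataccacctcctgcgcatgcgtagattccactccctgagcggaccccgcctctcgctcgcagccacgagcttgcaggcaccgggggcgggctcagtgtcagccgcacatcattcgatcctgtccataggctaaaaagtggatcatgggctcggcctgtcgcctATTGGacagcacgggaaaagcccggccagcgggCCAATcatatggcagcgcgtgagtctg
Lss: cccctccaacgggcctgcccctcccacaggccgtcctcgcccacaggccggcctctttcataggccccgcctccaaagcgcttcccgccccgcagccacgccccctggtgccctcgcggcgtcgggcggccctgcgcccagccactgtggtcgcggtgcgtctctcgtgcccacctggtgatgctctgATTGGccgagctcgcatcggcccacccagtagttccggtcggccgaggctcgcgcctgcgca
Hsd17b7: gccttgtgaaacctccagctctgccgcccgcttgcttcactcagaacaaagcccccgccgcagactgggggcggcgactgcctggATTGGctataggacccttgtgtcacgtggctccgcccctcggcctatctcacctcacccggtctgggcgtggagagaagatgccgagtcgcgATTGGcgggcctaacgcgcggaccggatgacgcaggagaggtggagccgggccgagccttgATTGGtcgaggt
Msmo1: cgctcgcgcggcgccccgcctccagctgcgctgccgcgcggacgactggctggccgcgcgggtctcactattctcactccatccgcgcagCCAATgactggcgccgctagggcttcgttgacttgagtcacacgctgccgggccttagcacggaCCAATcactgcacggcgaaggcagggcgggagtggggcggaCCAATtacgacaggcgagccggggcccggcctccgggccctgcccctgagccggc
The windows lie at chr8:122443423-122443672 (Mvd, minus strand), chr10:76531355-76531604 (Lss, plus strand), chr1:169969206-169969455 (Hsd17b7, minus strand) and chr8:64733579-64733828 (Msmo1, minus strand) in GRCm38.p6. CCAAT or ATTGG was present in 13 of the 15 windows listed for the sterol genes, a share of 86.7%, against 34.5% of 27025 genes. The box was also in 11 of the 16 clock windows, a share of 68.8%. It was in 5 of the 6 windows of called sterol genes, with 2 matches in Mvd, 1 in Lss, 3 in Hsd17b7 and 3 in Msmo1. The sterol regulatory element searched as TCACNCCAC or its reverse complement was in 1 of the 15 windows, against 1.04% of all genes, and in 0 of the 6 called. In the printed windows no CCAAT match overlapped another motif searched. The Hsd17b7 window also holds the E-box letters CACGTG, left in lower case. Of the 6 windows of called sterol genes, 1 held CACGTG.

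Sqle, squalene epoxidase, a rate-limiting step of the pathway (chromosome 15, 59315081 to 59331192, plus strand), stood at 15.8, 10.9, 33.7 and 33.2 CPM in week 2, against 38.9, 57.7, 72.7 and 54.6 CPM in week 1. The weeks did not overlap, and the 2 week-2 libraries without choline were the lowest of all 8 (log2 -1.37 ± 0.26, edgeR adjusted p = 0.0491). Mvd, mevalonate diphosphate decarboxylase, stood at 7.71, 6.52, 10.6 and 8.17 CPM in week 2 and at 12.8, 15.6, 17.5 and 15.4 CPM in week 1 (log2 -0.91 ± 0.11, edgeR adjusted p = 0.0038). Pmvk, phosphomevalonate kinase, stood at 17.8, 21.5, 34.1 and 27.5 CPM in week 2 and at 38.2, 38.2, 48.8 and 43.3 CPM in week 1 (log2 -0.77 ± 0.1, edgeR adjusted p = 0.00702).

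Fdft1, squalene synthase, followed with 48.5, 45.5, 74.7 and 61.5 CPM in week 2 and 76.4, 94.1, 93.2 and 99.6 CPM in week 1 (log2 -0.68 ± 0.1, edgeR adjusted p = 0.00987). For Pmvk and Fdft1 the order within week 2 was again lower without choline than with it. Changes in Lss (-0.74 ± 0.11), Msmo1 (-0.82 ± 0.17), Dhcr7 (-0.5 ± 0.11) and Hsd17b7 (-0.46 ± 0.1) were of similar log2 size, with adjusted p of 0.0112, 0.0491, 0.047 and 0.0373 in edgeR. Hmgcs1, which makes HMG-CoA early in the pathway, was not called (log2 -0.66 ± 0.18, edgeR adjusted p = 0.0868).

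Between 4 and 8 sterol genes were called with 1 library left out, and Mvd, Pmvk, Fdft1 and Lss were called in every such fit. Sqle was called in 1 of the 8 (adjusted p up to 0.158), Dhcr7 in 1, and Msmo1 and Hsd17b7 in 2 each. The list of SREBP2 regulators and sterol uptake genes had 0 of 10 members called, with a median of -0.04. Srebf2, which encodes SREBP2, stood at 57, 27.9, 59.2 and 58.7 CPM in week 2 and 55.6 to 65.2 CPM in week 1 (log2 -0.28 ± 0.24, edgeR adjusted p = 0.555), so only week 2 water replicate 2 was low.

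Some genes of sterol export rose. Of 10 LXR targets and efflux genes, 4 were called higher and 0 lower, against 2.29% and 1.61% of all genes tested. The list median was 0.21, and 2 members had a negative log2 change. Abcg8 and Abcg5 encode the paired subunits of the transporter that pumps sterols into bile. They lie on opposite strands of chromosome 17, Abcg8 at 84676302 to 84699333 and Abcg5 at 84658234 to 84683011, and because these spans overlap, the split of reads between them is uncertain. Abcg8 stood at 113, 87.7, 72 and 74.7 CPM in week 2 and at 54.7, 41.2, 43.7 and 34.3 CPM in week 1 (log2 0.99 ± 0.12, edgeR adjusted p = 0.00702). Abcg5 stood at 85.3, 63.9, 55.4 and 57.7 CPM in week 2 and at 50.2, 40.8, 41.4 and 39.3 CPM in week 1 (log2 0.6 ± 0.1, edgeR adjusted p = 0.0172). Both were higher in all 4 week-2 libraries, most of all in water replicate 1. Soat2, which esterifies cholesterol (log2 0.37 ± 0.09, edgeR adjusted p = 0.0483), and Lcat, which esterifies it in plasma (log2 0.25 ± 0.06, edgeR adjusted p = 0.0491), rose by less.

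Abcg8 was called in all 8 fits with 1 library left out and Abcg5 in 7 (adjusted p = 0.0513 without week 2 choline replicate 1), whereas Soat2 was called in 1 and Lcat in 0. The efflux list thus held 1 to 3 called genes in those fits, the lowest count being without week 2 choline replicate 1. In a fit of all 12 recovery libraries 1 of the list was called, and Abcg8 and Abcg5 were not (edgeR adjusted p = 0.134 and 0.256). Among 25 genes of bile acid synthesis and transport, 3 were called higher and 0 lower, against 2.29% and 1.61% of all genes tested. They were the canalicular pumps Abcc2 (log2 0.49 ± 0.07, edgeR adjusted p = 0.0065) and Abcb11, the bile salt export pump (log2 0.4 ± 0.07, edgeR adjusted p = 0.0193), and Cyp27a1, the first enzyme of the alternative synthesis route (log2 0.3 ± 0.07, edgeR adjusted p = 0.0497). Abcc2 stood at 980, 1010, 821 and 850 CPM in week 2, above the 633 to 678 CPM of week 1. Cyp8b1, which sets the share of cholic acid, stood at 173, 182, 174 and 73.8 CPM in week 2 and 142, 89.5, 49.6 and 40.4 CPM in week 1 and was not called (log2 1.03 ± 0.36, edgeR adjusted p = 0.178).

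**Figure D4:**
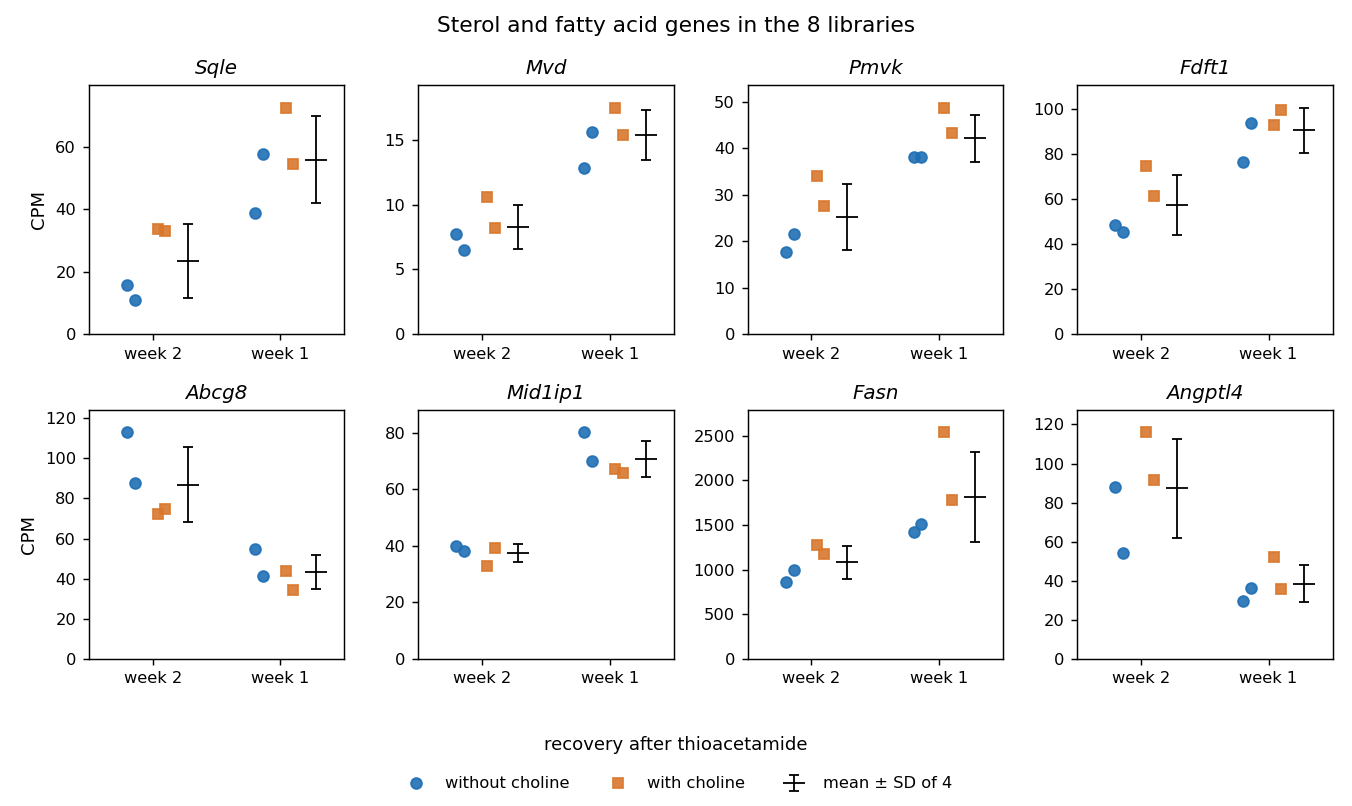
CPM (y axis, from 0) of 8 genes of sterol and fatty acid metabolism in each library of week 2 (left) and week 1 (right), circles without and squares with choline; black marks are the mean ± SD of the 4 libraries. Sqle, Mvd, Pmvk, Fdft1, Mid1ip1 and Fasn are lower in all week-2 libraries, and Abcg8 and Angptl4 are higher in all of them.

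Fatty acid synthesis had 3 of 18 members called lower and 0 higher, against 1.61% and 2.29% of all genes tested. The list median was -0.41. Mid1ip1, an activator of acetyl-CoA carboxylase (X chromosome, 10715019 to 10718384, plus strand), stood at 39.9, 38.1, 32.7 and 39.2 CPM in week 2 and at 80.2, 70, 67.3 and 65.8 CPM in week 1 (log2 -0.92 ± 0.07, edgeR adjusted p = 0.00015). Fasn, fatty acid synthase, stood at 860, 999, 1280 and 1180 CPM in week 2 and at 1420, 1510, 2540 and 1780 CPM in week 1 (log2 -0.74 ± 0.11, edgeR adjusted p = 0.008). Neither gene had overlapping weeks, and both were called with any 1 library left out. Elovl6, which lengthens palmitate, fell too (log2 -0.88 ± 0.15, edgeR adjusted p = 0.0238), although it was called in 3 of the 8 leave-one-out fits (adjusted p up to 0.0881).

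Scd2, a stearoyl-CoA desaturase outside the list, had the largest fall among genes named by size, with 38.1, 22.2, 48.1 and 35.4 CPM in week 2 and 85, 157, 186 and 104 CPM in week 1 (log2 -1.9 ± 0.33, edgeR adjusted p = 0.0469). The weeks did not overlap, but the call was lost with any 1 library left out (adjusted p up to 0.118). Scd1, the main hepatocyte desaturase, was not called (log2 -0.37 ± 0.17, edgeR adjusted p = 0.231), nor was Srebf1, the lipogenic SREBP gene (log2 -0.01 ± 0.11, edgeR adjusted p = 0.982).

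Of 24 genes of fatty acid oxidation and PPAR-alpha targets, 3 were called higher and 0 lower, against 2.29% and 1.61% of all genes tested. All 24 had a positive log2 change, with a median of 0.21 against -0.01 over all genes. Angptl4, a secreted inhibitor of lipoprotein lipase raised by fasting, stood at 87.9, 54.1, 116 and 91.5 CPM in week 2 and at 29.7, 36.2, 52.2 and 35.9 CPM in week 1 (log2 1.17 ± 0.2, edgeR adjusted p = 0.0343). Its lowest week-2 library lay just above its highest week-1 library, and the call was kept in 1 of the 8 leave-one-out fits. Plin2, which coats lipid droplets (log2 0.4 ± 0.07, edgeR adjusted p = 0.0186), and Ppara itself (log2 0.37 ± 0.09, edgeR adjusted p = 0.0448) were the others. The weeks overlapped for Ppara. Between 0 and 3 members of the list were called higher with 1 library left out, and 1 was in a fit of all 12 recovery libraries. Fitm1, an endoplasmic reticulum protein of lipid droplet formation that is in no list, stood at 9.28 to 16.5 CPM in week 2 and 4.11 to 7.63 CPM in week 1 (log2 1.21 ± 0.24, edgeR adjusted p = 0.0373).

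Matrix genes of the scar fell in part. Of 31 matrix and myofibroblast genes, 0 were called higher and 7 lower, against 2.29% and 1.61% of all genes tested. The list median was -0.46, and 29 members had a negative log2 change. Thbs1, thrombospondin 1, a matrix protein that activates TGF-beta (chromosome 2, 118111876 to 118127133, plus strand), stood at 3.08, 3, 3.03 and 4.13 CPM in week 2 and at 5.41, 7.93, 7.07 and 5.83 CPM in week 1 (log2 -0.99 ± 0.17, edgeR adjusted p = 0.0133). Col5a2, a chain of collagen V that seeds fibrils, stood at 6.8, 6.4, 8.05 and 8 CPM in week 2 and at 12.2, 14.3, 11.2 and 11.6 CPM in week 1 (log2 -0.76 ± 0.12, edgeR adjusted p = 0.0092). Both were lower in every week-2 library. Col6a1, of the beaded microfibrils (-0.8 ± 0.14), Thbs2 (-0.72 ± 0.17) and Sparc, a collagen-binding glycoprotein (-0.66 ± 0.13), fell on the log2 scale with edgeR adjusted p of 0.0186, 0.0428 and 0.0391.

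The main fibrillar collagens did not reach the threshold. Col1a1 (chromosome 11, 94936224 to 94953042, plus strand) stood at 45.4, 34.7, 40.6 and 57.5 CPM in week 2 and at 71.5, 116, 74.9 and 70.7 CPM in week 1 (log2 -0.9 ± 0.24, edgeR adjusted p = 0.0965). All week-2 values lay below all week-1 values, with week 1 water replicate 2 far above the other 3 libraries of its week. Col1a2 (log2 -0.82 ± 0.19, edgeR adjusted p = 0.0633) and Col3a1 (log2 -0.88 ± 0.2, edgeR adjusted p = 0.0691) had the same arrangement. Acta2, the smooth muscle actin of myofibroblasts, stood at 2.21 to 3.57 CPM in week 2 and 1.42 to 3 CPM in week 1 and was not called (log2 0.37 ± 0.25, edgeR adjusted p = 0.432).

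Week 2 choline replicate 2 carried the highest level of its week for Thbs1, Thbs2, Col6a1, Sparc and Col1a1. Without that library 16 of the 31 matrix genes were called lower, and without week 2 choline replicate 1 only 1 was, with 2 without either week 2 water library and 3 without week 1 choline replicate 1. In a fit of all 12 recovery libraries 1 was called lower, and Thbs1 was not (edgeR adjusted p = 0.143). Cholangiocyte markers, of the bile ducts, moved with the matrix genes. Of 15 tested, 3 were called lower (Krt19 and Elf3 among them) and 0 higher, against 1.61% and 2.29% of all genes tested. The list median was -0.7, and the list summed to 195 to 288 CPM in week 2 against 274 to 406 CPM in week 1. Krt19, a duct keratin, stood at 3.29, 2.92, 3.48 and 4.13 CPM in week 2 and 4.82, 6.91, 4.92 and 5.65 CPM in week 1 (log2 -0.7 ± 0.16, edgeR adjusted p = 0.0448), and 0 of the 15 were called without any 1 of 6 of the libraries or in the fit of 12. Spp1, osteopontin of ducts and macrophages, was at 49.2, 49.4, 51 and 85.3 CPM in week 2 and 87.5, 146, 96.7 and 99 CPM in week 1 and was not called (log2 -0.88 ± 0.27, edgeR adjusted p = 0.131).

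Among 15 markers of macrophages derived from monocytes, all 15 had a negative log2 change, with a median of -0.4. Against 1.61% of all genes tested called lower, 1 was called, Cd63. This tetraspanin of late endosomes stood at 8.19, 9.36, 11.3 and 17.1 CPM in week 2 and at 23, 36.6, 27.8 and 27.3 CPM in week 1 (log2 -1.35 ± 0.25, edgeR adjusted p = 0.0411). The list summed to 86.6 to 117 CPM in week 2 and 123 to 162 CPM in week 1, without overlap. Cd63 alone, at a mean of 11.5 CPM in week 2 and 28.7 CPM in week 1, made up part of that difference. Trem2, the receptor of scar-associated macrophages, had a log2 change of -1.01 ± 0.26 with an edgeR adjusted p of 0.0578. Stellate cells and Kupffer cells had 0 called of 14 and 13 markers, with medians of -0.09 and -0.07. Of the stellate markers 12 had a negative log2 change. Their sum was 330 to 375 CPM in week 2 and 385 to 461 CPM in week 1, also without overlap. Kupffer markers, 9 of them negative, summed to 625 to 795 CPM in week 2 and 555 to 716 CPM in week 1, with overlap. The largest members of that sum were C6 (means of 259 CPM in week 2 and 180 CPM in week 1) and Slc40a1 (191 and 164 CPM). Clec4f averaged 57.4 and 59.4 CPM, so the sum does not follow each marker. Sinusoidal endothelium had 0 higher and 2 lower of 16, against 1.61% of all genes tested called lower. These were Lyve1 (log2 -0.55 ± 0.13) and Gpr182 (log2 -0.31 ± 0.08), with edgeR adjusted p of 0.043 and 0.0491. The part of these cell types in the fall of matrix genes was not tested.

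Several targets of the damage-response factor p53 fell. Of 19 tested, 8 were called lower and 0 higher, against 1.61% and 2.29% of all genes tested, with a median of -0.47. Zmat3, an RNA-binding tumour suppressor (chromosome 3, 32334792 to 32365678, minus strand), stood at 23.1, 21.6, 22 and 22.7 CPM in week 2 and at 29.4, 33.3, 32 and 31.8 CPM in week 1 (log2 -0.5 ± 0.06, edgeR adjusted p = 0.0038). Cdkn1a, the cell cycle inhibitor p21, stood at 21.8, 21.5, 28 and 19 CPM in week 2 and at 46.6, 35.1, 40.3 and 46.2 CPM in week 1 (log2 -0.9 ± 0.13, edgeR adjusted p = 0.0121). The weeks were apart for both, and the week-2 values of Zmat3 lay close together. Phlda3, an inhibitor of AKT (-1.08 ± 0.19), Ccng1, a cyclin (-0.44 ± 0.08), and Aen, a nuclease of apoptosis (-0.47 ± 0.08), fell on the log2 scale with edgeR adjusted p of 0.0141, 0.0156 and 0.0133.

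Zmat3 and Aen were called with any 1 library left out, and between 3 and 8 members of the list were. Cdkn1a lost the call without either week 2 water library (adjusted p up to 0.0576). Btg2, an antiproliferative gene that is both a p53 target and an immediate early gene, stood at 18.5, 18.8, 19.7 and 15.8 CPM in week 2 and at 28, 43.9, 70.7 and 53.3 CPM in week 1 (log2 -1.38 ± 0.25, edgeR adjusted p = 0.042). It was called in 2 of the 8 leave-one-out fits.

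Oncofetal genes, which the adult liver keeps low and regenerating or transformed liver expresses, had a median log2 change of -0.75. Of 9 tested, 3 were called lower and 0 higher, against 1.61% and 2.29% of all genes tested. Gpc3, a heparan sulfate proteoglycan used as a liver tumour marker (X chromosome, 52272426 to 52613921, minus strand), stood at 3.25, 3.73, 2.31 and 3.62 CPM in week 2 and at 9.02, 6.94, 7.37 and 7.56 CPM in week 1 (log2 -1.26 ± 0.16, edgeR adjusted p = 0.00374). Golm1, a Golgi protein raised in liver disease, fell as well (log2 -0.69 ± 0.1, edgeR adjusted p = 0.00702). These 2 genes were called in every leave-one-out fit. Cd24a, shared with ducts, had log2 -0.85 ± 0.2 (edgeR adjusted p = 0.0469), and Afp, alpha-fetoprotein, was not called at 1.02 to 1.69 CPM in week 2 and 1.8 to 3 CPM in week 1 (log2 -0.79 ± 0.24, edgeR adjusted p = 0.0857).

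Proliferation genes were mostly below week 1 without passing the test. Of 35 mitosis genes, 34 had a negative log2 change, with a median of -0.69, and 0 were called, with 13 at an unadjusted p under 0.05, as were 22.0% of all genes tested, and 2 called lower by DESeq2, which called 4.21% of all genes higher and 2.96% lower. Mki67, the proliferation antigen Ki-67, stood at 6.46, 11.5, 10.2 and 8.21 CPM in week 2 and at 10.9, 24.8, 10.5 and 19.3 CPM in week 1. The weeks overlapped, and within each week-1 group the 2 libraries differed by more than the week means did (log2 -0.85 ± 0.36, edgeR adjusted p = 0.241). Ccnd1, cyclin D1 (log2 -0.4 ± 0.24), and Ccnb1, cyclin B1 (log2 -0.74 ± 0.42), had edgeR adjusted p of 0.381 and 0.336. Among 31 DNA replication genes 1 was called, Uhrf1, which guides maintenance of DNA methylation (log2 -1.02 ± 0.2, edgeR adjusted p = 0.023). The share called lower over all genes tested was 1.61%, so 1 of 31 is not read as a fall of the list.

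Immediate early genes, transcribed within minutes of a stimulus, had 5 of 15 called lower and 0 higher, against 1.61% and 2.29% of all genes tested. The list median was -0.65. Ier2 stood at 18.8, 17.9, 22.2 and 17 CPM in week 2 and at 25.6, 25.2, 36.4 and 33.4 CPM in week 1 (log2 -0.65 ± 0.1, edgeR adjusted p = 0.0092). Jun (-0.57 ± 0.09) and Dusp1, a phosphatase of MAP kinases (-0.7 ± 0.14), fell on the log2 scale with edgeR adjusted p of 0.0134 and 0.0392. Atf3, a stress-induced repressor, fell more (log2 -1.71 ± 0.34, edgeR adjusted p = 0.0373), from a mean of 5.56 CPM in week 1 to 1.66 CPM in week 2. The weeks overlapped for Jun and Atf3. In the list 3 members had a positive log2 change, the largest being Myc, which was not called (log2 1.13 ± 0.64, edgeR adjusted p = 0.374). Fos stood at 1.43, 3.24, 5.02 and 3.7 CPM in week 2 and 6.97, 19.5, 35.6 and 16.5 CPM in week 1, apart but not called (log2 -2.54 ± 0.49, edgeR adjusted p = 0.0522). Only Ier2 was called in every leave-one-out fit, 1 member was called without week 2 water replicate 1, and 3 were called in a fit of all 12 recovery libraries.

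The heat shock gene Hspa1b stood at 15.3, 11, 16.5 and 15.3 CPM in week 2 and at 28.8, 40.2, 39.9 and 34.8 CPM in week 1 (log2 -1.31 ± 0.13, edgeR adjusted p = 0.00319). Its near-identical copy Hspa1a, chosen after its values were seen, had log2 -1.14 ± 0.41 (edgeR adjusted p = 0.154), and reads shared by the copies make the split between them uncertain. Chaperones of the endoplasmic reticulum had 6 of 17 called higher and 0 lower, against 2.29% and 1.61% of all genes tested. The list median was 0.28. Hyou1, a chaperone of secreted proteins, stood at 380, 363, 357 and 366 CPM in week 2 and at 268, 283, 270 and 320 CPM in week 1 (log2 0.36 ± 0.07, edgeR adjusted p = 0.0224), and Pdia4, a disulfide isomerase, had log2 0.41 ± 0.08 (edgeR adjusted p = 0.0256). No chaperone was called without week 2 water replicate 1, without week 2 water replicate 2 or without week 2 choline replicate 1, and none in a fit of all 12 recovery libraries.

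Several genes with the tightest separation belong to no list. Sgk2, a kinase related to the serum and glucocorticoid-regulated kinase (chromosome 2, 162987330 to 163014127, plus strand), stood at 87.3, 74.4, 70.9 and 74.4 CPM in week 2 and at 34.4, 36.8, 35.7 and 37.7 CPM in week 1 (log2 1.09 ± 0.07, edgeR adjusted p = 6.26e-05). Slc8b1, the mitochondrial sodium and calcium exchanger (chromosome 5, 120511168 to 120534024, plus strand), stood at 63.6, 52.6, 54.7 and 60 CPM in week 2 and at 28.1, 27.2, 30.8 and 25.5 CPM in week 1 (log2 1.05 ± 0.08, edgeR adjusted p = 0.00015). In both the lowest week-2 library was well above the highest week-1 library, and both were called with any 1 library left out. Map3k13, a kinase upstream of JNK, was also called in each of those fits (log2 1.11 ± 0.11, edgeR adjusted p = 0.00312), at 69 to 103 CPM in week 2 and 33.4 to 44.8 CPM in week 1.

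Mir22hg, the RNA from which microRNA-22 is cut (chromosome 11, 75461539 to 75466676, plus strand), stood at 42, 37.2, 34.3 and 31.3 CPM in week 2 and at 15.6, 17.7, 17.1 and 22.1 CPM in week 1 (log2 1 ± 0.12, edgeR adjusted p = 0.00644). The mature arms in RefSeq are shown with the seed, bases 2 to 8, in capitals. Their own levels were not measured here.
mmu-miR-22-3p: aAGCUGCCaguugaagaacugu
mmu-miR-22-5p: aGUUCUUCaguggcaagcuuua
The hairpin lies within the host gene, at chr11:75463772-75463793 for the 3p arm and chr11:75463734-75463755 for the 5p arm on the plus strand of GRCm38.p6.

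Osgin1, an oxidative stress response gene, was at 464 to 651 CPM in week 2 and 202 to 313 CPM in week 1 (log2 1.09 ± 0.16, edgeR adjusted p = 0.0156), and Fbf1, a ciliary transition fibre protein, was at 26.4 to 52.8 CPM in week 2 and 11.3 to 19.6 CPM in week 1 (log2 1.38 ± 0.26, edgeR adjusted p = 0.047). On the falling side, Banp, a nuclear protein that binds CpG-rich promoters, was at 5.45 to 6.74 CPM in week 2 and 11.4 to 14.6 CPM in week 1 (log2 -1.13 ± 0.11, edgeR adjusted p = 0.000898). Mtmr11, a pseudophosphatase of the myotubularin family (-1.05 ± 0.18), and Enah, a regulator of actin filaments (-0.98 ± 0.22), completed the largest falls on the log2 scale, with edgeR adjusted p of 0.0142 and 0.0373. Of these, Banp alone was called in every leave-one-out fit, Osgin1 and Mtmr11 in 5 of 8, Enah in 2 and Fbf1 in 1.

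Among the genes of choline and one-carbon metabolism, 2 of 29 were called higher and 0 lower, against 2.29% and 1.61% of all genes tested. They were Cbs, cystathionine beta-synthase (log2 0.5 ± 0.09, edgeR adjusted p = 0.0156), and Chpt1, choline phosphotransferase (log2 0.3 ± 0.07, edgeR adjusted p = 0.0393). Bhmt, which uses betaine to remethylate homocysteine, varied more within weeks than between them, at 2280, 1160, 1580 and 1130 CPM in week 2 and 2350, 1130, 1350 and 2820 CPM in week 1 (log2 -0.32 ± 0.41, edgeR adjusted p = 0.7). Pemt, which makes phosphatidylcholine in liver (log2 0.18 ± 0.07), and Chdh, which turns choline to betaine aldehyde (log2 0.38 ± 0.1), had edgeR adjusted p of 0.171 and 0.0521. In the growth hormone axis 2 of 12 were called higher, Igfbp2, a carrier of insulin-like growth factor (log2 0.68 ± 0.11, edgeR adjusted p = 0.0118), and Stat5b (log2 0.35 ± 0.07, edgeR adjusted p = 0.0246). Between 0 and 3 members of that list were called higher with 1 library left out. The integrated stress response list had Asns, asparagine synthetase (log2 1.61 ± 0.31, edgeR adjusted p = 0.0224), and Atf5 (log2 0.46 ± 0.09, edgeR adjusted p = 0.0298) called higher of 16. Asns averaged only 2.59 CPM in week 2 and 0.843 CPM in week 1, and its weeks overlapped. The stress response list held 0 to 2 genes called higher with 1 library left out, and 0 in a fit of all 12 recovery libraries.

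No member was called in the lists of T and NK cells (5 tested), B and plasma cells (9), neutrophils (4), MHC class II presentation (8), interferon-stimulated genes (18), red blood cells (8), ribosomal proteins (26) and oxidative phosphorylation (28). Over these lists, 0, 0, 0, 1, 2, 1, 2 and 1 members had an unadjusted p under 0.05, against 22.0% of all genes tested, and DESeq2 called 1 ribosomal protein gene lower and 1 oxidative phosphorylation gene higher. The medians lay between -0.35 and 0.25. Acute phase proteins had 2 of 19 called higher, the fibrinogen chains Fga and Fgb, NRF2 targets had 1 of 20 called lower, G6pdx of the pentose phosphate pathway, and male-biased liver genes had 1 of 22 called higher, the P450 gene Cyp2j9. With 2.29% of all genes tested called higher and 1.61% lower, these few calls are not read as results about the lists.

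The week difference was then read in each drink, with 1 mean for each of the 4 groups. Without choline 127 genes were called (0.768% of 16544), 68 higher and 59 lower in week 2, and with choline 7 were called (0.0423%), 4 higher (0.0242%) and 3 lower (0.0181%). The count without choline was 505 without week 1 water replicate 1 and 30 to 79 without week 1 water replicate 2 or any 1 of the 4 week-2 libraries. The count with choline was 0 without either week 2 choline library, 20 without week 1 choline replicate 1, and 19 to 31 without any 1 of the 4 water libraries. Of the 645 genes of the pooled comparison, all 645 had the same sign in both drinks. They were called on the average of both drinks in these same libraries, so a shared sign was largely fixed in advance. Among those called with choline, Per2 fell by 1.96 with choline and by 1.69 without it on the log2 scale, Glul changed by 0.89 with choline and 1.07 without it, Sgk2 by 0.99 and 1.18, and Mid1ip1 by -0.89 and -0.94. Sterol genes had a median of -0.36 with choline and -0.89 without it. Sqle changed by -0.93 with choline and -1.86 without it, an interaction with an unadjusted p of 0.0445 in edgeR that did not pass adjustment.

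No gene had a called interaction of choline with week in edgeR's quasi-likelihood test, against 896 of 16544 (5.42%) at an unadjusted p under 0.05 and 15 called by DESeq2. The counts of the drinks therefore do not show that the week difference depends on choline. Among the 5 genes with the smallest p, none of which passed, were 2 Kupffer cell markers. Clec4f, a lectin confined to Kupffer cells in mice, stood at 58.4 and 63.5 CPM in week 2 without choline against 50.9 and 49.6 CPM in week 1 without choline, and at 55.3 and 52.5 CPM in week 2 with choline against 69 and 68.2 CPM in week 1 with choline (unadjusted p = 0.000181 in edgeR). Vsig4, a complement receptor of the same cells, had log2 changes of -0.71 with choline and 0.26 without it (unadjusted p = 0.000194 in edgeR). The inflammatory cytokine Il1b (-1.64 with choline and 1.31 without it) and the antiproliferative gene Btg1 (0.01 with choline and 0.66 without it) were others, with unadjusted p of 0.00013 and 0.000101 in edgeR.

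Levels at the remaining times, given without a test, placed the other called groups. Nr1d1 stood at 9.16 and 5.48 CPM in controls, 37.2 and 10.8 CPM at the end of TAA, 3.57 to 5.72 CPM in week 1, 28.8 to 96.6 CPM in week 2 and 77 to 137 CPM in week 4, so week 2 was near week 4 and week 1 was near the controls. Per2 stood at 6.32 and 19.2 CPM in controls, 8.86 and 23 CPM at the end of TAA, 16.4 to 22.2 CPM in week 1, 4.55 to 7.21 CPM in week 2 and 6.27 to 8.72 CPM in week 4, and the controls and the TAA livers each differed more between their 2 libraries than the weeks 2 and 4 did. For Per1 the order was not kept, with 34 to 73.5 CPM in week 4, above both week 2 and week 1.

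Sqle stood at 11.4 and 17.7 CPM in controls and at 146 and 100 CPM at the end of TAA, and in week 4 at 7.62 and 4.88 CPM without choline and 12.9 and 38.8 CPM with choline. Pmvk did not share that order, at 59.1 and 51.7 CPM in controls, 57.5 and 49.9 CPM at the end of TAA and 10 to 31.3 CPM in week 4. Fasn was at 237 and 253 CPM without choline and 810 and 887 CPM with choline in week 4, and at 405 and 1010 CPM in controls. Zmat3 stood at 9.39 and 16.6 CPM in controls, 70.7 and 82.9 CPM at the end of TAA and 15.4 to 22 CPM in week 4. Col1a1 stood at 7.67 and 10.5 CPM in controls, 206 and 136 CPM at the end of TAA and 24.8 to 74.3 CPM in week 4, a range that covers the week-2 libraries and part of the week-1 libraries.

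**Figure D5:**
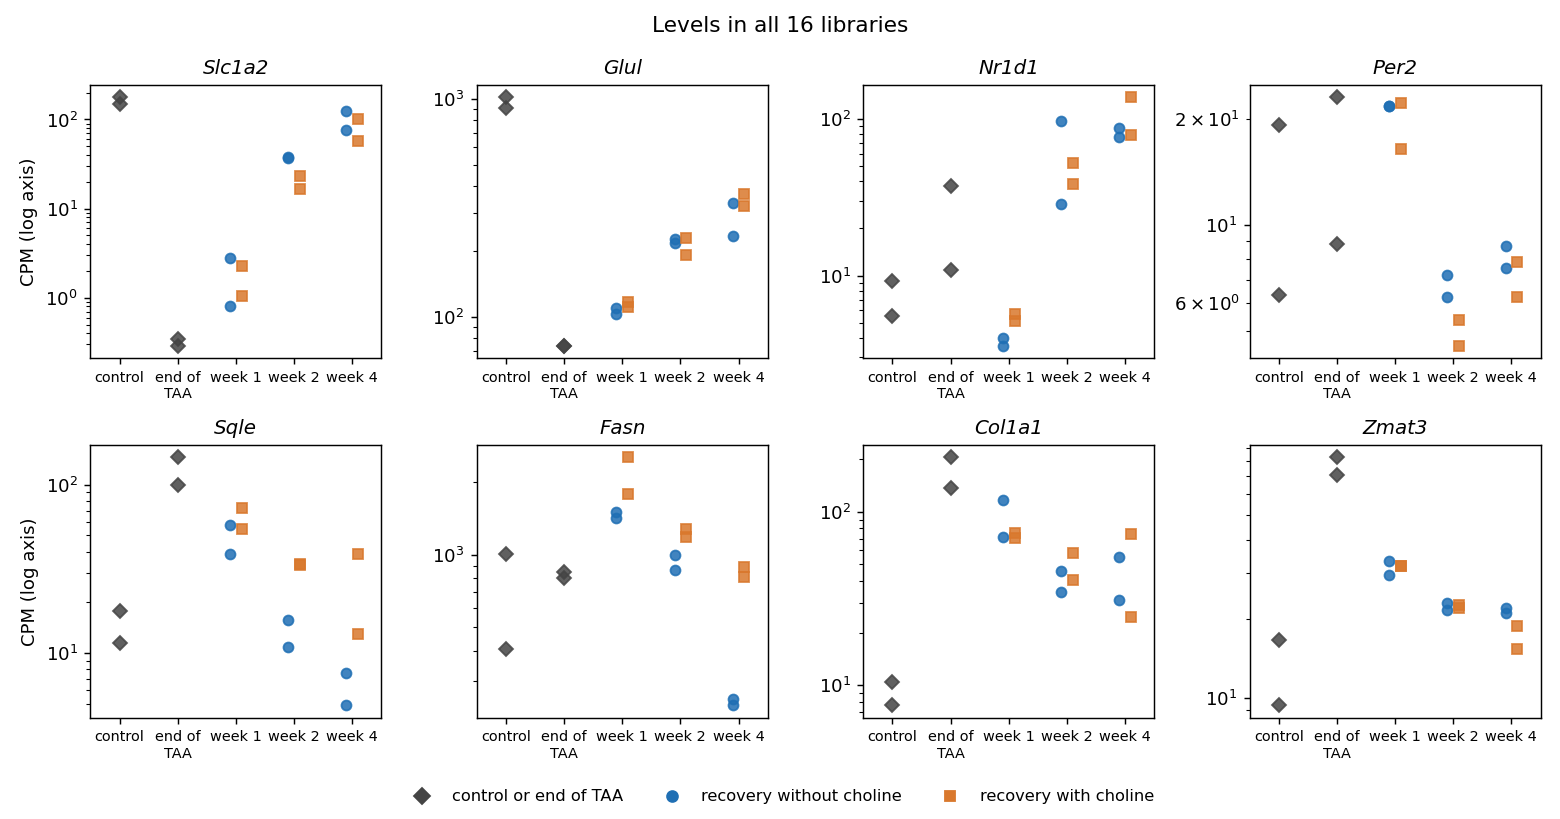
CPM (log y axis) of 8 genes in all 16 libraries, ordered as control, end of TAA, and recovery weeks 1, 2 and 4 (x axis); diamonds are control or TAA libraries, circles recovery without and squares recovery with choline. Slc1a2 and Glul are higher at each later point after TAA, Zmat3 lies between 21.6 and 23.1 CPM in week 2, and Nr1d1 is low in controls and in week 1.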

How the data were processed

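Whole-liver RNA was extracted with TRIzol, depleted of ribosomal RNA and made into directional libraries, per the labels' protocols. The authors deposited expected counts per gene, with STAR 2.7.10b, RSEM 1.3.3, DESeq2 1.36.0 and build GRCm38 listed per the submitters' processing notes. No annotation, filter or strand option for the counting step was found in the labels. In the deposited expected counts 8.66% of values had a fraction and were rounded to whole numbers; 2 columns matched no sample and were not used, nor was a table of TPM.

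The 8 libraries of weeks 2 and 1 were fitted in R 4.3.3 with edgeR 4.0.16: genes were kept by filterByExpr (16544), scaled by TMM and tested with robust quasi-likelihood F tests on week with choline as a block. P-values were adjusted by Benjamini-Hochberg over all genes tested, with a threshold of 0.05, and log2 changes are week 2 over week 1 with their SE. Simulated data for this comparison on 16544 genes gave 83% of genes changed 2-fold and 99% of those changed 4-fold as called. The changed genes were drawn from those averaging above 1 CPM, so these shares do not cover genes below that level. Simulated libraries held no deviation shared across genes, which real libraries may have. CPM use TMM-scaled library sizes. Starts in the table count from 0 and were raised by 1.

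Genes were named by rule: the 15 largest changes in each direction among called genes whose higher week averaged 5 CPM or more, with no overlap between weeks and a gene name that is not a locus number; from each list up to 5 members with the smallest p and those with the extreme changes; all cholesterol synthesis genes; a set of fixed genes; and the 5 smallest p for the interaction. Others are said to be chosen after their values were seen. The comparison and the gene lists were chosen with earlier results of these data known. Promoter windows and microRNAs are from RefSeq on GRCm38.p6. Alternatives were DESeq2 1.42.0, other scaling, filters, libraries and covariates, each library left out, and, chosen after seeing the data, counts thinned to the lowest total. Some genes that the rule names are not reported here.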

Additional observations from a re-analysis of the deposited data

Results flagged for a closer look

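In 214 groups of 4 libraries (a named gene in 1 week), 19 single values stood apart from the other 3 libraries of their week by a gap above Dixon's 95% critical value; chance gives about 1 in 20. Of these, 6 were in week 2 choline replicate 2. It had the highest level of its week for the matrix genes Thbs1 (4.13 CPM) and Thbs2 (7.07 CPM) and for the duct or progenitor genes Elf3 (1.02 CPM), Cd24a (6.3 CPM) and Spp1 (85.3 CPM), and the lowest for Cyp8b1 (73.8 CPM).

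In week 2 water replicate 1, Cyp2e1 (3170 CPM), Dbp (6.33 CPM) and Lyve1 (7.19 CPM) were high, and in week 2 water replicate 2 Srebf2 was low (27.9 CPM). In week 1 choline replicate 1, Bhlhe40 (225 CPM) and Lyve1 (9.79 CPM) were high and Lhpp (2.04 CPM) and Per2 (16.4 CPM) were low. Week 1 choline replicate 2 had a low Aen (21.2 CPM). In week 1 water replicate 2 the collagens Col1a1 (116 CPM), Col1a2 (88.4 CPM) and Col3a1 (207 CPM) were high and Arntl was low (28.9 CPM).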

How the results depend on the processing

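The 645 calls of the pooled comparison became 1185 with DESeq2, 2100 with no filter on low counts, 342 in a fit of all 12 recovery libraries and 10 in a fit of all 16 libraries; the share higher was 58.8%, against 44% with no filter. For week 2 against week 1 without choline the same settings gave 516, 1638, 78 and 0 calls in place of 127. With choline, DESeq2 gave 179, no filter 769, all 16 libraries 0 and counts thinned to the lowest total 12, in place of 7. For the interaction DESeq2 gave 15 and no filter 283, in place of 0. Leaving out 1 library gave 154 to 489 calls pooled, 30 to 505 without choline, 0 to 31 with choline and 0 to 9 for the interaction. The cause of these shifts was not tested.

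With the replicate number as a block, 687 genes were called pooled, 292 without choline, 21 with choline and 0 for the interaction. Same-numbered libraries share only a number: their deviations correlated at -0.071 to 0.179 over the pairs of groups.

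Of 80 named genes that were called, none changed direction in any setting, 33 to 59 kept the call with 1 library left out, 48 with all 12 recovery libraries and 9 with all 16. Among named genes that were not called, Srebf1 changed sign to 0.00 with DESeq2 or its size factors, and 0.03 with no choline term. With 1 library left out Srebf1 ranged over -0.09 to 0.10, Dbp over -0.07 (without week 2 water replicate 1) to 0.85, and Thra over -0.08 to 0.02. Totals of 23.1 to 30.6 Mcounts and 4 libraries a week limit what small changes can be called.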
